A study of Mus musculus with 2 samples.

Results

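Noncoding RNAs were among the most abundant transcripts of lung group 2 innate lymphoid cells (ILC2s), and a few of them differed several-fold between WT and Pac1-/- libraries. The 10 transcripts described here are Malat1, Neat1, Gm42418, AY036118, Gm26917, Gm10076, Gm42031, Gm47015, Gm26802 and Proscos, of 32285 genes listed in the files. They were listed with measured values of these data known, and most had a high level or a large ratio between genotypes, whereas Gm26802 had neither. Their levels and ratios are therefore given as a description. A barcode was kept as a cell when 500 or more genes were detected in it and no more than 10% of its unique molecular identifiers (UMIs, 1 per captured transcript) came from mitochondrial (mt-) genes. All 10 members had UMIs in both libraries, and all 10 reached the minimum of 50 UMIs set for a ratio.

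ILC2s are lymphocytes that reside in tissues such as the lung, lack rearranged antigen receptors and make type 2 cytokines. The study asked what PAC1, a phosphatase encoded by Dusp2, does in these cells, and profiled sorted lung ILC2s by droplet-based scRNA-Seq. Each genotype had 1 library, made from cells pooled over 4 to 5 mice aged 6 to 8 weeks on the C57BL/6J background. The sort gate was lineage-negative, CD90.2+, ST2+ and Sca-1+, after digestion of the lung and enrichment, and 13000 cells per genotype were loaded. Pac1-/- mice lack a working Dusp2 gene, and the labels give no treatment for either library. With 1 library per genotype, no difference had a replicate check and none was tested, and every 95% interval below covers counting error only.

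Of 10866 WT barcodes, 8394 passed with 54579034 UMIs and a median of 4186.5 per cell, and of 9495 Pac1-/- barcodes, 7087 passed with 58338886 UMIs and a median of 5577. Dusp2 had 1419 UMIs in the WT and 5 in the Pac1-/- library, in the direction of the labels. All 10 ILC2 markers were detected, and 8193 WT and 6914 Pac1-/- cells held a UMI of Gata3 or Il1rl1. Hemoglobin genes, which mark red blood cells, summed to 76.1 counts per 1000000 UMIs (CPM) in WT and 269 CPM in Pac1-/-. Epithelial markers summed to 53.9 and 78.9 CPM, T cell markers to 402 and 491 CPM, mast cell markers to 13.2 and 28.6 CPM, B cell markers to 6.30 and 11.4 CPM and myeloid markers to 1.23 and 5.71 CPM. Endothelial markers summed to 41.8 and 38.6 CPM, stromal markers to 1.25 and 1.25 CPM and NK cell markers to 0.696 and 0.994 CPM. Of the 5 T cell markers compared between libraries 3 were past 2-fold lower in Pac1-/-. The libraries shared 15 barcode sequences among passing cells. Ratios are given relative to the median gene, whose log2 ratio of Pac1-/- over WT was 0.19 over the 12427 genes compared.

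Malat1 and Neat1 are long noncoding RNAs that stay in the nucleus. Malat1 is found in nuclear speckles, bodies rich in splicing factors, and Neat1 is the scaffold on which paraspeckles form. In single-cell data a high share of Malat1 is often taken as a sign of nuclear RNA. Gm42418, AY036118 and Gm26917 lie together on chromosome 17 around a stretch annotated as ribosomal RNA, so that reads counted for them can come from rRNA. Gm10076 is a near copy of Rpl41, which encodes a very small protein of the large ribosomal subunit. For Gm42031, Gm47015, Gm26802 and Proscos no function was assumed.

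The places of the members in the genome set what their counts can mean. Coordinates are those of the GRCm38 build (GENCODE M21). Malat1 lies at chr19:5795690-5802672 and Neat1 at chr19:5824708-5845478, both on the minus strand. On the plus strand, Gm26917 lies at chr17:39843013-39846341 and Gm42418 at chr17:39846958-39848788. AY036118 lies at chr17:39847113-39848035 on the minus strand, wholly inside Gm42418, with 923 bases in common. The rRNA annotation CT010467.1 covers AY036118 on the same strand and is identical to Gm42418 over 1244 bases on the other strand. Gm10076 is a gene of 384 bases at chr14:105681828-105682211, plus strand. The minus-strand genes Gm42031 (chr8:85125872-85132289), Gm47015 (chr10:79412962-79417905) and Gm26802 (chr7:19298260-19300770) overlap no other annotated gene. Proscos, at chr8:27042377-27043042 on the minus strand, is antisense to the start of Plpbp and shares 241 bases with its transcripts.

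Gm10076 and Rpl41 can be told apart at only a pair of bases. Over 383 aligned bases the transcripts were 99.5% identical without gaps and differed by C127T and G234A, where the Rpl41 base comes first, then the position from 1 at the 5′ end of the Gm10076 transcript, then the Gm10076 base. The windows of 30 bases of Gm10076 around these sites are shown, with the differing base in capitals, because a read that covers neither fits both genes. They lie on the plus strand at chr14:105681940-105681969 and chr14:105682047-105682076.
Gm10076 around position 127: caagtaagccagccTgtgcacctacgacgc
Gm10076 around position 234: agtagacctggaacAtcacctcgccgcgat

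Capture in this assay starts from a poly-A stretch, so the 3′ ends bear on how a transcript is counted. The hexamers AATAAA and ATTAAA, the common signals for poly-A addition, were searched on the transcript strand in the last 60 bases of each member's longest transcript. Malat1, Gm10076, Gm47015 and Proscos held one. Neat1, Gm42418, AY036118, Gm26917, Gm42031 and Gm26802 did not, although the 3004-base Neat1-202 transcript held AATAAA. Gm42031 also held AATAAA a short way before the window, where the other members were not searched. Of all long noncoding genes 43.5% held a signal in this window, and of protein-coding genes 70.1%. The last 60 bases of transcripts with a signal (in capitals) and of Gm42418, without one, are shown 5′ to 3′, in order at chr19:5795690-5795749, chr19:5842307-5842366, chr10:79412962-79413021, chr8:27042377-27042436 (all minus strand) and chr17:39848729-39848788 (plus strand).
Malat1: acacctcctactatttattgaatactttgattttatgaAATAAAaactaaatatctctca
Neat1-202: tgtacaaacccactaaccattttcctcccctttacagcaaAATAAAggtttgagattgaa
Gm47015: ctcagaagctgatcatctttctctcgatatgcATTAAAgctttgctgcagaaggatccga
Proscos: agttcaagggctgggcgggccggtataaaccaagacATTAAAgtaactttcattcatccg
Gm42418: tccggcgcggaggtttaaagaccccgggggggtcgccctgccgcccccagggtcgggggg

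An A-rich stretch inside a transcript can also be primed. A run of at least 8 A was present in the longest transcript of Malat1 and of no other member, against 16.02% of long noncoding and 28.7% of protein-coding genes. By a second measure, a window of 20 bases with at least 16 A, Malat1 and Neat1 each held 1, with 17 A, and the other 8 members none, against 11.9% of long noncoding and 20.9% of protein-coding genes. The Malat1 run of 12 A (capitals) ended 298 bases before the annotated 3′ end, at chr19:5795968-5796019, minus strand, flanks included. Whether Malat1 was captured at this run or at the annotated end was not tested.
Malat1 internal run: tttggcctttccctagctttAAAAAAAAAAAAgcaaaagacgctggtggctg

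Together the 10 members took 5.78% of all UMIs in WT cells and 4.02% in Pac1-/- cells. They made up 81.7% and 78.2% of the UMIs of all long noncoding genes. By number of UMIs Malat1 ranked 1 and Gm42418 ranked 3 among all genes in both libraries. Gm10076 ranked 19 in WT and 203 in Pac1-/-. In WT the order by CPM was Malat1, Gm42418, Gm10076, Gm42031, AY036118, Neat1, Gm26917, Gm26802, Proscos and Gm47015. In Pac1-/- it was Malat1, Gm42418, Gm10076, AY036118, Neat1, Gm26917, Gm47015, Gm42031, Gm26802 and Proscos. Counting intervals of neighbours in these orders did not overlap. The 3′ assay counts transcripts and not their length, so these CPM were not scaled by length.

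**Figure D1:**
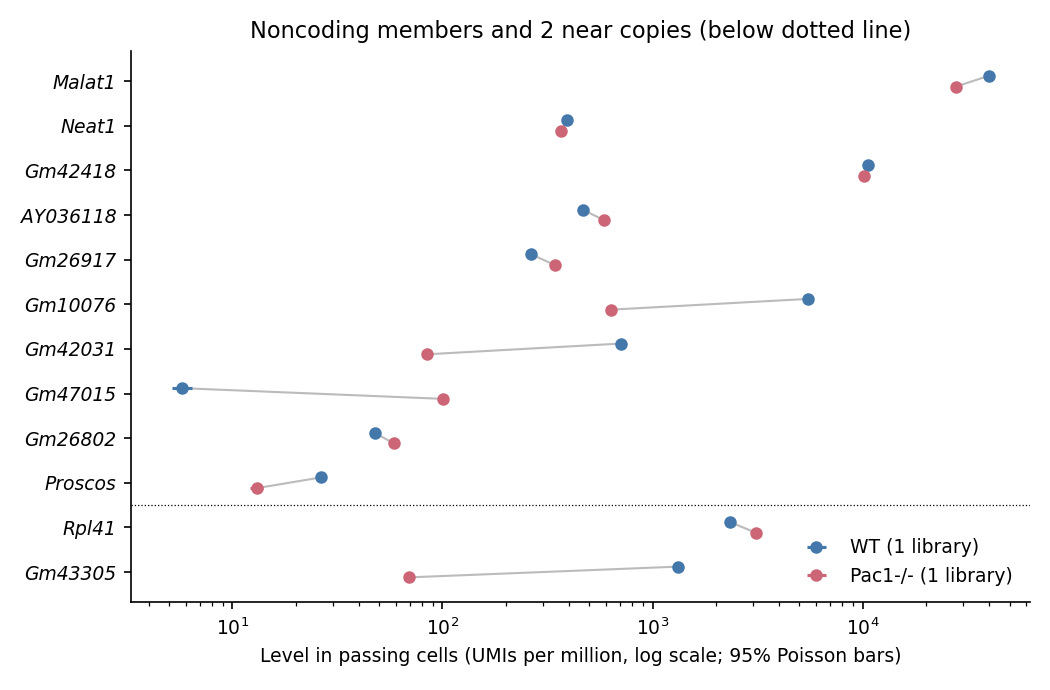
Level of each member in passing cells, in CPM on a log axis, in the WT and the Pac1-/- library (1 each), with 95% Poisson bars that are mostly narrower than the points. Gm10076, Gm42031 and Proscos lie to the left in Pac1-/- and Gm47015 to the right, while under the dotted line stand Rpl41 and Gm43305, near copies of Gm10076 and Gm42031.

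Of the 10 members, 3 were past 2-fold lower in Pac1-/- relative to the median gene, namely Gm10076, Gm42031 and Proscos, and 1, Gm47015, was past 2-fold higher. Over all genes compared 5.08% were past 2-fold lower and 2.07% past 2-fold higher. The members were selected on this contrast, so nothing is read from these counts. Among the 1196 long noncoding genes compared, 201 were past 2-fold lower and 44 higher, with a median of -0.14 on the log2 scale. The same 4 members were past 2-fold in cells without a UMI of any erythroid, epithelial, B cell, mast cell or myeloid marker (5936 WT and 3576 Pac1-/- cells).

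Malat1 was at 39826 CPM in WT (95% interval, 39773 to 39879) and at 27808 CPM in Pac1-/- (27766 to 27851). It was lower in Pac1-/- by 0.71 on the log2 scale relative to the median gene, a 1.63-fold difference. At this level counting error was negligible, whereas the spread between mice or libraries was not measured. Within quintiles of cells by depth the log2 ratio as counted ran from -0.57 to -0.46, so the Pac1-/- level was the lower of the 2 in every quintile.

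Neat1 was nearly equal in the libraries, at 393 CPM in WT (388 to 399) and 365 CPM in Pac1-/- (360 to 370). Its ratio was -0.30 relative to the median gene and -0.11 as counted. Of the 12 genes listed for speckles and paraspeckles, such as Sfpq, Nono and Srrm2, none was past 2-fold in either direction, with a median of -0.13. Over all genes compared, 5.08% were past 2-fold lower and 2.07% higher, so nothing particular to this list is read from its count. The furthest of the 12 was Son, a core protein of nuclear speckles, at 936 CPM in WT and 554 CPM in Pac1-/-, or -0.94 on the log2 scale.

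The transcripts at the rRNA locus were of similar level in the libraries. Gm42418 was at 10542 CPM in WT (10515 to 10569) and 10194 CPM in Pac1-/- (10168 to 10219), with a relative log2 ratio of -0.24. AY036118 was at 465 CPM (459 to 471) and 590 CPM (584 to 596), or 0.16. Gm26917 was at 264 CPM (260 to 269) and 342 CPM (337 to 347), or 0.18. Thus AY036118 and Gm26917 were somewhat above the median gene in Pac1-/- and Gm42418 below it. Because Gm42418 and AY036118 overlap on opposite strands, their split rests on the strand assignment of the counting.

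Gm10076 had the largest UMI difference of the switched members. It was at 5476 CPM in WT (5457 to 5496) and at 637 CPM in Pac1-/- (630 to 643), a 9.80-fold lower level relative to the median gene. Rpl41, its near copy on chromosome 10, went the other way, from 2334 CPM (2321 to 2347) to 3099 CPM (3085 to 3113), or 0.22 on the relative log2 scale. Summed over the pair, the level was 7810 CPM in WT and 3736 CPM in Pac1-/-, a relative log2 ratio of -1.25. How the counting divided or left out reads that fit both genes was not tested. The level of Gm10076 alone is therefore uncertain, and so is that of the pair, although the summed counts stayed past 2-fold lower.

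Some ribosomal protein genes and other genes with short transcripts were also past 2-fold between the libraries, in both directions. Of 84 ribosomal protein genes compared, 9 were past 2-fold lower and 1 higher, against 5.08% and 2.07% of all genes compared. Their median was 0.03. Rps29 was at 13013 CPM in WT and 4035 CPM in Pac1-/-, Rps27 at 10131 and 3764 CPM and Rpl38 at 6988 and 2595 CPM. Rps27rt, a copy of Rps27, was higher, at 13.9 and 110 CPM. Among all 116 genes whose longest transcript is under 500 bases, 35.3% were past 2-fold lower and 15.5% higher, against 3.45% and 1.04% of the 4438 genes of 4000 bases and over. For the 67 long noncoding genes under 500 bases, the class of Gm10076, the median was -0.61. The part of transcript length in the Gm10076 ratio was not tested.

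Gm42031 was abundant in WT alone, at 709 CPM (702 to 716), against 84.8 CPM in Pac1-/- (82.5 to 87.2). This was 9.53-fold lower relative to the median gene. It is 98.7% identical over 748 bases to Gm43305 on chromosome 14, with 9 mismatches. Gm43305 was at 1316 CPM (1307 to 1326) and 69.5 CPM (67.4 to 71.7), a relative log2 ratio of -4.43, so these related transcripts were both lower. Other genes with shorter stretches of the same sequence were not lower to this extent. On the same strand, Gm4316 shared 614 bases and was at 3.44 CPM in WT and 2.85 CPM in Pac1-/-, or -0.46 on the relative log2 scale. Chd9, a chromatin remodeler, shared 337 bases and was at 75.5 and 109 CPM, and AI506816 shared 330 bases and was at 67.6 and 63.4 CPM. The division of reads between Gm42031 and Gm43305 was not tested. The study's methods describe the sequencing and counting once, for both libraries.

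Gm47015 was nearly absent from WT cells, at 5.77 CPM (5.15 to 6.45; 315 UMIs), and reached 101 CPM in Pac1-/- (98.3 to 103; 5882 UMIs). The relative difference was 15.3-fold, and 15 of the 12427 genes compared had a larger one in either direction. Of its related genes in the files, Gm49441 and Gm47415 had 1 UMI each in WT and 0 in Pac1-/-. Tmco3 was at 11.8 and 15.1 CPM.

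Gm26802 and Proscos were of low level. Gm26802 was at 47.6 CPM in WT (45.8 to 49.4) and 58.7 CPM in Pac1-/- (56.8 to 60.7), or 0.12 on the relative log2 scale, and so close to the median gene. Proscos was at 26.4 CPM (25.1 to 27.8) and 13.1 CPM (12.2 to 14.04), or -1.20. Plpbp, the gene on the opposite strand, which encodes a pyridoxal phosphate-binding protein, was at 76.1 and 68.5 CPM, or -0.34.

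Most genes compared around the switched members were within 2-fold of the median gene, as were most genes overall in the files. Within 1 Mb of Gm10076, none of 4 genes compared was past 2-fold, with a range from -0.30 to 0.18. Around Proscos none of 10 was past 2-fold. Around Gm47015, 2 of 45 genes were past 2-fold lower and none higher. Around Gm42031, 2 of 43 were higher and 4 lower, among them Asna1, which acts in the insertion of tail-anchored proteins, at 17.2 CPM in WT and 59.4 CPM in Pac1-/-. Over all genes compared, 5.08% were past 2-fold lower and 2.07% higher. These neighbourhoods were chosen by the members, and no share was compared with chance. Nothing particular to the neighbourhoods is read from these counts.

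Among genes with at least 200 UMIs and an annotated class other than protein coding, the 5 with the lowest ratio were A230059L01Rik (-5.21), Gm43305 (-4.43), Gm10076 (-3.29), Gm42031 (-3.25) and Gm47566 (-2.94). The 5 with the highest were Gm47015 (3.94), Gm12840 (1.70), Iglc2 (1.52), Gm28187 (1.52) and Tcrg-C1 (1.42). Values are relative log2 ratios. This class also takes in Iglc2 and Tcrg-C1, antigen receptor constant region genes, which encode protein. Gm47015 stood well above the next gene. Of the well-known long noncoding RNAs listed, 13 were compared, and 3 were past 2-fold lower and none higher, against 16.8% and 3.68% of all long noncoding genes compared. Nothing particular to the list is read from this. Dleu2, the host transcript of the miR-15a and miR-16-1 cluster, was at 274 CPM in WT and 99.8 CPM in Pac1-/-, or -1.64. Lncpint, a p53-induced transcript that did not reach 2-fold, was at 242 and 141 CPM, or -0.97. Of 16 host genes of small nucleolar RNAs, 3 were past 2-fold lower and none higher, a share again near that of all long noncoding genes. Snhg9, 1 of the 3, was at 37.1 and 13.1 CPM.

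The members differed widely in how evenly cells held them. To compare cells at equal depth, 1500 UMIs were drawn from every cell. Shallower cells, 760 in WT and 523 in Pac1-/-, could not be used, and 7634 and 6564 remained. The Fano factor, the variance over the mean of UMIs per thinned cell, is about 1 for counting noise alone. Over genes with a mean of at least 0.1 its median was 1.08 in WT and 1.06 in Pac1-/-.

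Malat1 was found in nearly every thinned cell, 99.9% in both libraries. A thinned WT cell held a median of 59 Malat1 UMIs (10th to 90th percentile, 39 to 87) and a Pac1-/- cell 42 (26 to 65). The ranges overlapped broadly, and the Fano factor was 6.54 and 6.45. In unthinned cells the Malat1 share had a median of 3.97% in WT and 2.83% in Pac1-/- and a maximum of 23.2% and 20.7%.

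Gm42418 had the highest Fano factor of the members, a measure that grows with the mean level. It was 74.8 in WT and 91.1 in Pac1-/-, exceeded in each library by 1 other gene among those with a mean of at least 0.1. The median cell held 9 UMIs of it in both libraries, the 90th percentile was 28 in WT and 23 in Pac1-/-, and the highest cells had 722 and 592 of 1500. Cells in which Gm42418 took at least 5% of UMIs, a limit set after the values were seen, numbered 375 in WT (4.47%) and 279 in Pac1-/- (3.94%). They held 24.5% and 25.3% of all Gm42418 UMIs. Their median depth was 3584 and 4411 UMIs, against 4229 and 5626.5 in the other cells. Their share of ribosomal protein UMIs was 23.1% and 22.2%, against 27.7% and 27.1%. AY036118 was at 4076 and 4988 CPM in them and at 367 and 487 CPM in the other cells, whereas Malat1 was at 36504 and 25959 CPM against 39916 and 27851 CPM. Gm42418 itself was at 97824 and 113150 CPM in the picked cells, which lowers the share left for all other genes. The Malat1 and ribosomal protein values were not corrected for this.

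**Figure D2:**
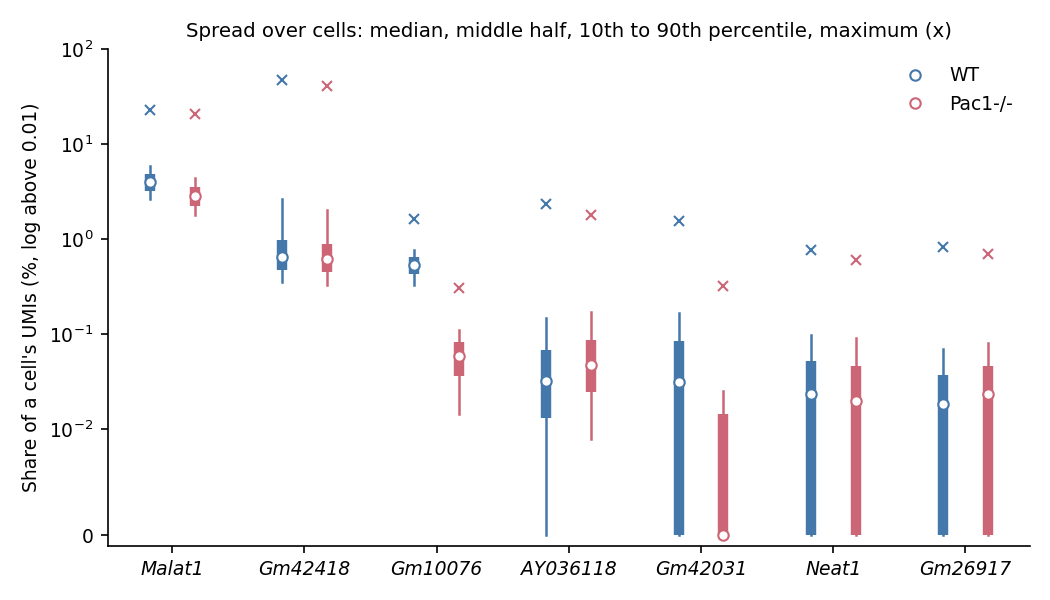
Share of each cell's UMIs taken by the 7 members most abundant in WT, for WT (8394 cells) and Pac1-/- (7087 cells). The axis is logarithmic above 0.01%. Marks give the median (circle), the quartiles (thick bar), the 10th to 90th percentiles (thin line) and the maximum (cross). Gm42418 reached 47.6% of the UMIs of a WT cell, while Gm10076 held a narrow range in WT, from 0.328% to 0.776% between these percentiles.

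Gm10076 was found in nearly every WT cell and in a majority of Pac1-/- cells. Among thinned WT cells 99.8% held a UMI of it, with a mean of 8.41 UMIs and a Fano factor of 1.44. Among Pac1-/- cells 60.8% did (59.7 to 62.0), with a mean of 0.947 and a Fano factor of 1.01. Poisson counts of that mean would leave 38.8% of cells without a UMI, and 39.2% had none. Rpl41 was present in 96.0% and 98.5% of cells, with Fano factors of 1.16 and 1.23.

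Neat1, AY036118 and Gm26917 were detected in only some of the thinned cells. For Neat1 the share of cells with a UMI was 34.7% in WT (33.6 to 35.8) and 33.0% in Pac1-/- (31.9 to 34.2), with Fano factors of 1.92 and 1.73. For AY036118 it was 44.2% (43.1 to 45.3) and 53.8% (52.6 to 55.1), with Fano factors of 4.08 and 3.67. For Gm26917 it was 30.1% (29.1 to 31.1) and 36.0% (34.9 to 37.2). The order of the libraries in these shares was that of the CPM.

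The spread of Gm42031 over cells was above the median gene in WT and close to it in Pac1-/-. In WT 45.2% of thinned cells held a UMI (44.05 to 46.3), with a Fano factor of 2.79, and in Pac1-/- 11.4% did (10.7 to 12.2), with a Fano factor of 1.04. For Gm47015 the share was 0.747% in WT (0.566 to 0.966) and 12.8% in Pac1-/- (12.03 to 13.7). For Gm26802 it was 5.23% (4.74 to 5.75) and 5.61% (5.06 to 6.19), with overlapping intervals, and for Proscos 3.64% and 2.10%. Without thinning the shares for Gm47015 were 3.002% and 38.0%. No cell type known to lack these transcripts was defined, so the share that free RNA gives was not measured for them. Hba-a1, a hemoglobin gene that ILC2s should lack, had a UMI in 2.54% of the thinned cells in WT and in 7.07% in Pac1-/-, so the WT share of Gm47015 and the Pac1-/- shares of Gm26802 and Proscos lay under that of Hba-a1.

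Low-depth cells were richer in Gm42418 and AY036118, of the rRNA locus. Passing cells were ranked by total UMIs and divided into quintiles, whose median depth ran from 1785 to 13708 UMIs in WT and from 2542.5 to 17290 in Pac1-/-. In WT, 2 of 10 members were past 1.5-fold higher in the lowest than in the highest quintile and 1 past 1.5-fold lower, against 7.4% and 3.68% of the 9241 genes with at least 200 UMIs. In Pac1-/- the counts were again 2 and 1, against 3.84% and 3.47% of 9562 genes. The higher members were Gm42418 and AY036118 in both libraries. The lower member was Gm42031 in WT and Gm26802 in Pac1-/-. Neither was past 1.5-fold when cells were ranked by detected genes (-0.36 and -0.42 on the log2 scale, against -0.63 and -0.79) or kept to at most 2 times the median UMIs (-0.33 and -0.43).

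From the lowest to the highest quintile Gm42418 was at 18977, 11781, 12314, 10782 and 8842 CPM in WT and at 20712, 11981, 10992, 9412 and 8719 CPM in Pac1-/-. The lowest quintile was 2.15-fold and 2.38-fold above the highest. AY036118 was at 1089, 621, 656, 516 and 298 CPM in WT and at 1371, 827, 787, 636 and 378 CPM in Pac1-/-, a 3.66-fold and 3.63-fold difference. Gm26917, beside them, did not pass 1.5-fold, at 315, 270, 302, 273 and 245 CPM in WT and at 374, 327, 353, 362 and 331 CPM in Pac1-/-. With cells ranked by detected genes its log2 ratio was 0.07 in WT and -0.10 in Pac1-/-. Most of the step for Gm42418 lay between the lowest quintile and the next. When cells with at least 5% Gm42418 UMIs were left out, AY036118 alone remained past 1.5-fold higher, and the Gm42418 log2 ratio was 0.47 in WT and 0.10 in Pac1-/-.

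Malat1 had a smaller slope in the same direction, at 49650, 43130, 39836, 39232 and 38339 CPM in WT and 36164, 30956, 28951, 27717 and 25912 CPM in Pac1-/-. Neat1, also a nuclear transcript, had the opposite slope in both libraries. It was at 338 CPM in the lowest and 405 CPM in the highest quintile of WT cells, and at 273 and 386 CPM in Pac1-/-. Gm10076 was nearly flat, with log2 ratios of -0.07 and -0.12. Gm26802 was at 38.4 CPM in the lowest and 66.4 CPM in the highest quintile of Pac1-/- cells, and at 40.9 and 50.4 CPM in WT.

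**Figure D3:**
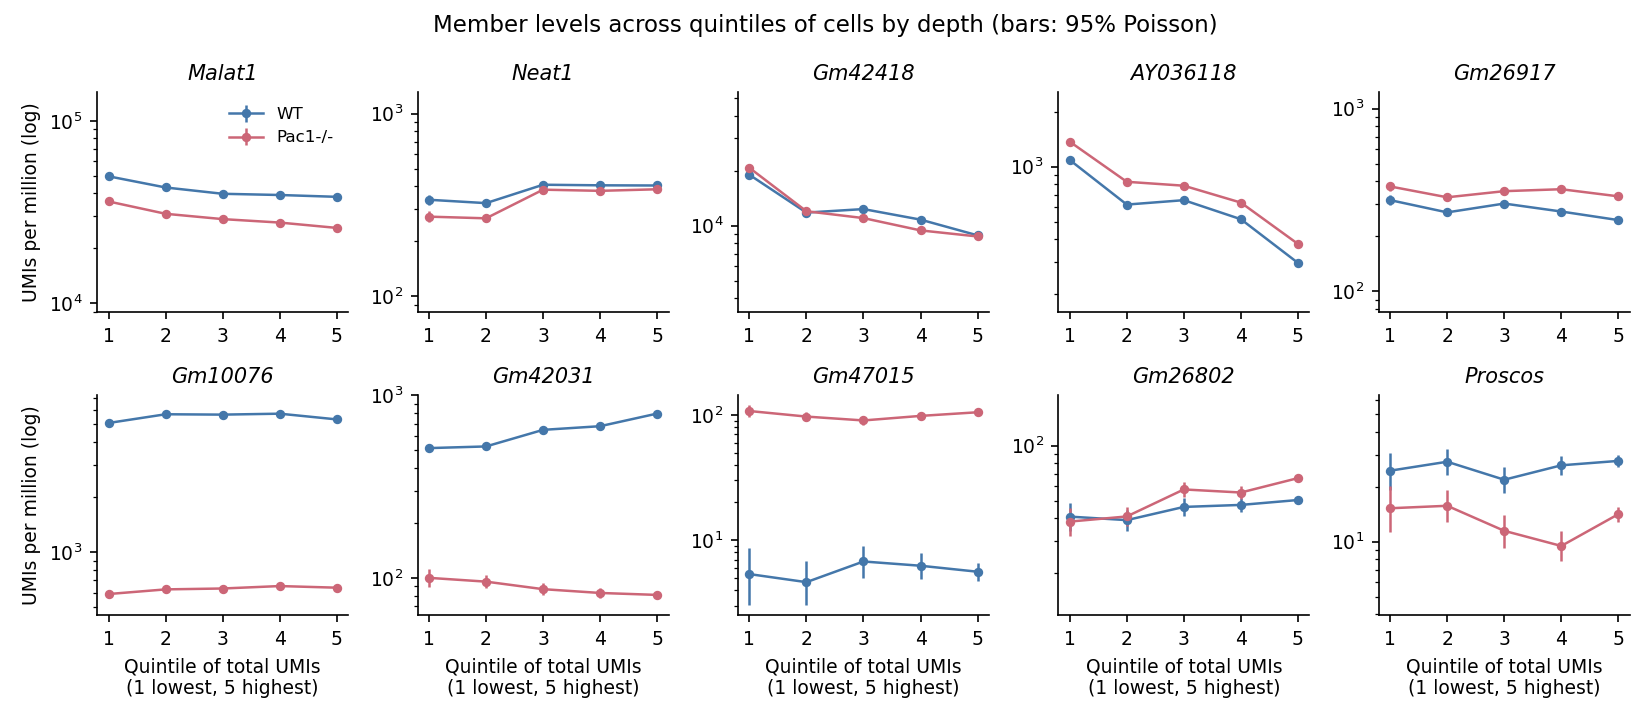
Level of each member (CPM, log axis) in quintiles of passing cells from the lowest (1) to the highest (5) total UMIs, in WT and Pac1-/-, with 95% Poisson bars. Gm42418 and AY036118 decline with depth in both libraries, while the distance between the libraries for Gm10076 and Gm47015 is kept in every quintile.

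Cells were also ranked by their mt- share, with levels taken per 1000000 non-mitochondrial UMIs. Median mt- shares of the quintiles ran from 1.58% to 3.45% in WT and from 2.09% to 4.55% in Pac1-/-. Malat1 hardly followed them, at 42671 and 41542 CPM in the lowest and highest quintile of WT and at 30707 and 29609 CPM in Pac1-/-. Neat1 was higher in cells of low mt- share, at 463 against 360 CPM in WT and 467 against 335 CPM in Pac1-/-. AY036118 was at 778 against 449 CPM and at 916 against 605 CPM. Gm26917 went the other way, at 258 against 311 CPM and at 318 against 391 CPM. Proscos was lower in cells of low mt- share, at 20.4 against 29.6 CPM and at 9.23 against 15.01 CPM, and Gm42031 higher, at 836 against 610 CPM and at 101 against 78.0 CPM. The directions were shared by the libraries for these 6 members.

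Barcodes outside the filter differed from passing cells in several members, among them Gm42418, AY036118 and Gm10076. Barcodes with under 500 genes and at most 10% mt- UMIs numbered 2301 in WT and 1967 in Pac1-/-, with a median depth of 594 and 575 UMIs. In them Gm42418 was at 25247 and 27435 CPM and AY036118 at 1759 and 3043 CPM, which was 3.78-fold and 5.16-fold above passing cells for AY036118. Malat1 was only 1.09-fold and 1.14-fold above. Barcodes with at least 500 genes and over 10% mt- UMIs were few, 69 in WT and 298 in Pac1-/-. In these Malat1 was at 93968 and 69116 CPM, 2.36-fold and 2.49-fold above passing cells, and Gm26917 was 2.81-fold and 2.64-fold above. Gm10076 was 5.52-fold and 3.45-fold below. Gm47015 had 0 UMIs in these WT barcodes, which allows up to 26.8 CPM.

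The values of Malat1 and Gm42418 just outside and just inside the limits of the filter are given as a description. Barcodes with 400 to under 500 genes held Malat1 at 49151 CPM in WT and 37720 CPM in Pac1-/-, and cells with 500 to under 600 genes at 49727 and 44935 CPM. For Gm42418 the values were 24499 and 25345 CPM just outside and 26574 and 23977 CPM just inside. At the mt- limit, barcodes with 8% to 10% held Malat1 at 68287 and 42002 CPM and those with 10% to 12% at 90760 and 59478 CPM. Gm42418 was at 27531 and 7933 CPM in the former and at 20564 and 12843 CPM in the latter, so its direction across this limit differed between the libraries.

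**Figure D4:**
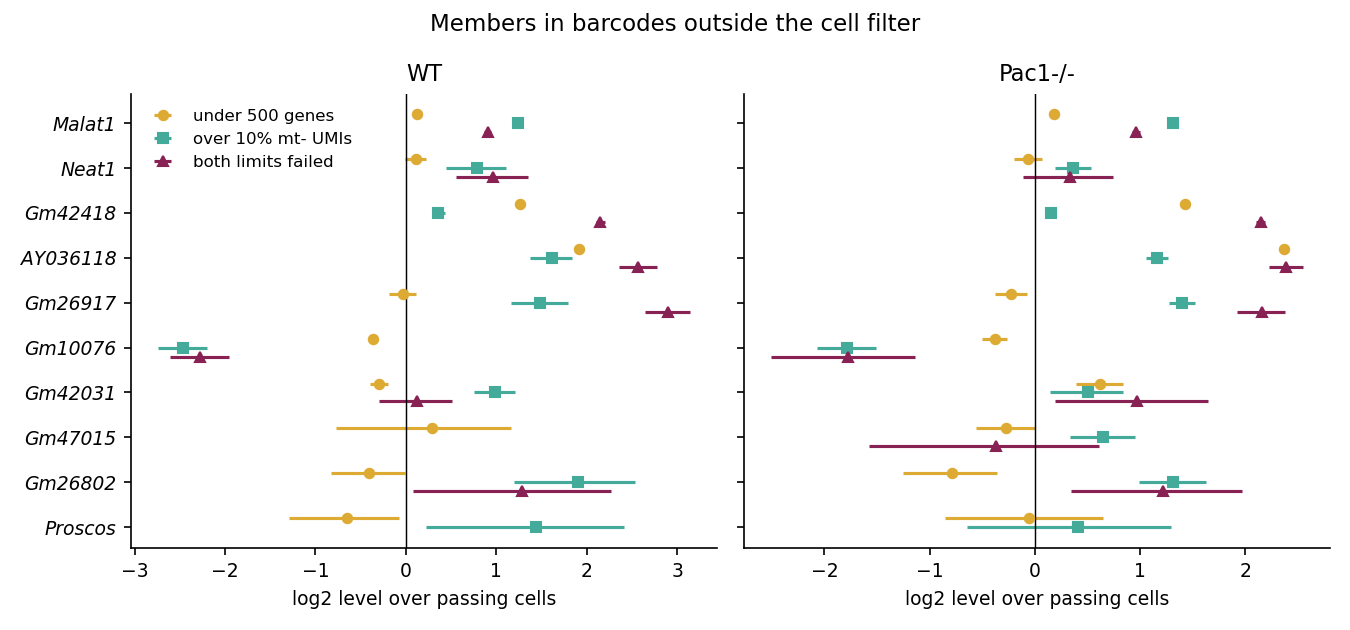
Log2 level of each member in barcodes outside the cell filter relative to passing cells of the same library, for barcodes with under 500 genes, with over 10% mt- UMIs, or failing both limits, with 95% Poisson bars (members with 3 UMIs or fewer in a class are not drawn). Gm42418 and AY036118 lie to the right in barcodes with under 500 genes, and Gm10076 lies to the left in barcodes with over 10% mt- UMIs in both libraries.

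Il5, the cytokine that recruits eosinophils, was at 718 CPM in WT and 405 CPM in Pac1-/- and divided the cells of each library. After thinning, 2481 WT cells had an Il5 UMI and 5153 had none, with median unthinned depths of 5679 and 4137 UMIs. In Pac1-/- the numbers were 1289 and 5275, with median depths of 7223 and 5604. Cells with an Il5 UMI were thus the deeper cells before thinning. Thinning need not remove every effect of depth, and ratios were also taken within the middle quintile of depth. The part of depth in the differences by status was not tested further. Of 9 WT members with at least 200 thinned UMIs, 1 was past 1.5-fold higher in cells with Il5 and none lower, against 3.24% and 4.86% of 5369 genes. Of 9 in Pac1-/-, none was past 1.5-fold in either direction, against 4.71% and 7.39% of 5308 genes.

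The WT member past this fold was Gm42031, at 881 CPM in cells with Il5 (851 to 912) and 521 CPM in cells without (505 to 537), a 1.69-fold difference. In Pac1-/- it was at 79.6 CPM (67.6 to 93.3) and 83.5 CPM (77.3 to 90.2), with overlapping intervals. Within the middle quintile of depth the Gm42031 log2 ratio was 0.87 in WT and 0.26 in Pac1-/-. Gm42418 was lower in cells with Il5 in both libraries, at 9671 against 12809 CPM in WT and 8875 against 12431 CPM in Pac1-/-. AY036118 and Gm26917 were lower as well, by 0.33 and 0.45 on the log2 scale in WT and 0.42 and 0.33 in Pac1-/-. The AY036118 value moved with the handling of depth, from -0.05 within the middle quintile of depth to -0.82 without thinning in Pac1-/-, and from -0.22 with 1000 UMIs to -0.75 without thinning in WT. Malat1 was within 0.09 log2 units of equal in both libraries. Neat1 was at 352 against 387 CPM in WT and at 393 against 329 CPM in Pac1-/-.

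Txnip encodes a thioredoxin-binding protein that restrains glucose uptake, and was at 206 CPM in WT and 378 CPM in Pac1-/-. A Txnip UMI was present in 1717 of the thinned WT cells and absent from 5917, with median depths of 4332 and 4484 UMIs, so depth differed little. In Pac1-/- the numbers were 2277 and 4287, with medians of 5810 and 5766. In WT none of 9 members was past 1.5-fold higher in cells with Txnip and 1 was lower, against 2.2% and 0.931% of genes. In Pac1-/- none of 9 was past in either direction, against 1.43% and 0.98%.

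The lower WT member was Proscos, at 19.0 CPM in cells with Txnip (14.1 to 25.1; 49 UMIs) and 29.7 CPM in cells without (26.3 to 33.6; 264 UMIs). This count was small, and the log2 ratio of -0.64 was -0.27 when cells were thinned to 1000 UMIs, -0.44 in the middle quintile of depth and -0.03 without thinning, so that the call was lost in each. Gm26917 was higher in cells with Txnip, at 352 against 265 CPM in WT and 378 against 341 CPM in Pac1-/-. Gm42031 was at 529 against 669 CPM in WT, the reverse of its direction by Il5, and at 81.7 against 83.3 CPM in Pac1-/-. Its WT log2 ratio of -0.34 was -0.62, past 1.5-fold, in the middle quintile of depth and -0.04 without thinning. Malat1 was 0.03 log2 units higher in cells with Txnip in both libraries. Without thinning its direction was reversed, at -0.05 in WT and -0.11 in Pac1-/-.

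Cells divided by both genes showed the same for Gm42031. In WT it was at 896 CPM in cells with Il5 and no Txnip UMI, at 809 CPM in cells with both, at 549 CPM in cells with neither and at 436 CPM in cells with Txnip alone. In Pac1-/- the 4 groups lay between 79.0 and 84.6 CPM. Over these groups the log2 ratio of Pac1-/- over WT, as counted, ran from -3.50 to -2.42 for Gm42031, from -3.20 to -3.09 for Gm10076. For Gm47015, with 3 to 26 UMIs per WT group, the lowest of the ratios was 3.74. The large ratios of these 3 members were therefore present in cells of every Il5 and Txnip status.

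**Figure D5:**
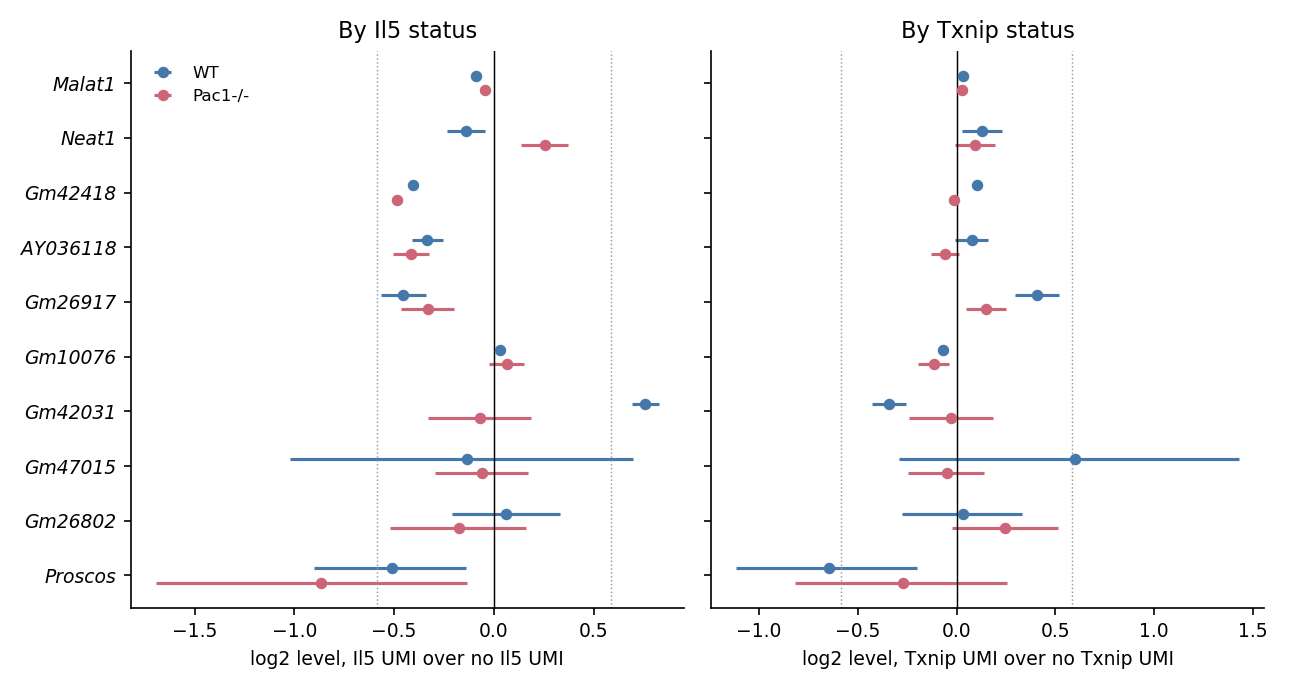
Log2 level of each member in thinned cells with an Il5 (left) or Txnip (right) UMI over cells without, in WT and Pac1-/-, with exact 95% counting intervals and dotted lines at 1.5-fold. Gm42031 by Il5 status in WT, at 0.76, lies outside the dotted lines, while Gm42418, AY036118 and Gm26917 lie left of 0 by Il5 status in both libraries.

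Across thinned cells the members moved together only weakly. Spearman correlations are given as a description, over 7634 WT and 6564 Pac1-/- cells that share a library and a fixed depth. The highest between members was that of Gm42418 and AY036118, 0.31 in WT and 0.34 in Pac1-/-, which share sequence. Malat1 and Neat1 had 0.12 in both. Malat1 and Gm42418 had 0.05 and 0.10. Of 1844 genes with a mean of at least 0.1 in both libraries, those most like Gm42418 after AY036118 were Lars2, a mitochondrial leucyl-tRNA synthetase (mean, 0.21), Macf1 (0.12), Inpp4b (0.09) and Mbnl1 (0.07). Those most like Malat1 were Fosb (0.14), Cd69 (0.12), Neat1 (0.12), Srrm2 (0.11) and Jun (0.11). Those most like Neat1 were Jun (0.13), Fosb (0.13), Malat1 (0.12), Hsp90aa1 (0.11) and Hspa1b (0.11). Fosb and Jun are immediate early genes, and Hsp90aa1 and Hspa1b encode heat shock proteins.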

How the data were processed

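The libraries were made with a 10x Genomics 3′ kit (v3.1). The deposited values were raw UMI counts per gene and barcode, which the authors made with Cell Ranger 6.1.1 and mm10 per the labels, whereas the file header gives version 4.0.0. The annotation release used for counting was not given in the sources used here. No normalization had been applied by the authors.

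Counts were summed over passing barcodes (at least 500 genes and at most 10% mt- UMIs) and divided by the total to give CPM. Doublets were not called. Instead, barcodes above 2 times the median UMIs were left out as an alternative. Intervals were exact Poisson for CPM, conditional binomial for ratios and Clopper-Pearson for shares (95%), all for counting error only, since the cells of a library were pooled over mice. Where a count was 0, 3 counts were taken as the limit. No p-value was computed. Fold limits were 2 between libraries and 1.5 within them. The members, lists and fold limits were chosen with earlier results of these data known. Named genes were the members, Dusp2, Il5, Txnip, up to 4 per list with the largest ratio and at least 200 UMIs, the 5 highest and 5 lowest genes of a class other than protein coding, and the 5 genes most correlated with Malat1, Neat1 and Gm42418. Near copies, neighbours and edge cases were added after values were seen. Annotation and sequences came from GENCODE M21, which matched 32235 of 32285 genes. Near copies were found with BLAST+ 2.17.0. Computation used Python 3.11.15, numpy 2.4.6, scipy 1.17.1 and pandas 2.3.3. The ratio and thinning steps were tested on simulated data.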

Additional observations from a re-analysis of the deposited data

Results flagged for a closer look

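Effects of opposite direction in the 2 libraries, each with a counting interval that leaves out 0, were seen for 3 members (Neat1, Gm42031 and Gm42418), and none of these differences was tested, since each genotype had 1 library. By Il5 status Neat1 had a log2 ratio of -0.14 in WT (-0.23 to -0.04), being lower in cells with Il5, and of 0.26 in Pac1-/- (0.14 to 0.37), being higher in them. The WT ratio was close to 0 under other thinning, at -0.02 with 1000 UMIs, -0.06 with 2000 UMIs and -0.02 without thinning, whereas the Pac1-/- ratio stayed between 0.18 and 0.38 under the 6 alternatives. Between the lowest and the highest quintile of total UMIs Gm42031 had a log2 ratio of -0.63 in WT (-0.70 to -0.55) and of 0.31 in Pac1-/- (0.14 to 0.48). The WT ratio was -0.36 with cells ranked by detected genes and -0.33 with cells kept to at most 2 times the median UMIs. In barcodes with under 500 genes, relative to passing cells, Gm42031 was at -0.30 in WT (-0.40 to -0.20) and 0.62 in Pac1-/- (0.39 to 0.84), and in the part of them with at least 400 genes at -0.26 and 0.74. In cells with 8% to 10% mt- UMIs, only 39 in WT and 52 in Pac1-/-, Gm42418 was at 1.38 in WT (1.31 to 1.45) and -0.36 in Pac1-/- (-0.42 to -0.30) relative to passing cells.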

How the results depend on the processing

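The genotype counts of 3 members past 2-fold lower and 1 higher were the same in number under all 9 other settings run for them, including 2 chosen after seeing the data, namely copies summed and barcodes with other cell type markers left out. Relative to the median gene, the log2 ratio ran from -3.33 to -1.25 for Gm10076, lowest in size with Rpl41 added, from -3.90 to -2.98 for Gm42031, from 3.88 to 3.99 for Gm47015 and from -1.24 to -1.08 for Proscos. Over depth quintiles, the member past 1.5-fold lower (Gm42031 in WT, Gm26802 in Pac1-/-) was lost in both libraries (0 members) when cells were ranked by detected genes or kept to 2 times the median UMIs. Without cells at 5% Gm42418 or more, an exclusion chosen after seeing the data, 1 member was past 1.5-fold higher in each library. By status, without thinning, 1 member, AY036118, was lower with Il5 in WT and in Pac1-/- and with Txnip in Pac1-/-, while 0 were lower with Txnip in WT. With at least 2 Il5 UMIs, 1 member was lower in each library (Gm26917 in WT, Gm26802 in Pac1-/-), and with thinning to 1000 UMIs, 0 were lower with Txnip in WT. Within the middle quintile of depth the member lower with Txnip in WT was Gm42031 (-0.62) in place of Proscos (-0.44). The cause was not tested. Of 90 counts of members recomputed, 77 stayed within 1.5 times and 13 did not. Ratios between libraries and shares of cells with a UMI were also recomputed for each member. Of these, 51 stayed inside the counting interval of the main value and 99 did not. No paired analysis was possible because each genotype had 1 library. Members under 200 thinned UMIs (Gm47015 in WT, Proscos in Pac1-/-) were too rare for a call by status.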
